A study of Homo sapiens with 12 samples.

Results

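The elements described here are the 36 double substitutions at positions 7 and 8 of the Pumilio response element, which reads TGTA, any base, then ATA, in a recorder library of short RNA elements read out by editing. An element of 8 bases was taken as a member if it matched this consensus at positions 1 to 4 and at position 6 and differed from it at both positions 7 and 8. Position 5 may hold any base, so the 9 base pairs possible at positions 7 and 8 each occur with 4 bases at position 5. All 36 were listed in all 12 libraries, among 1006 elements listed in all 12 and 1022 seen in any library. Sequences are written as DNA from the 5′ end, and a substitution is named by the consensus base, its position (the 5′-most base is position 1) and the base that replaces it.

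Pumilio proteins bind messenger RNA through a domain of Puf repeats, in which successive repeats contact successive bases of the element, and the repeats near the amino terminus face the 3′ end of the RNA. Human PUM2 is known for binding the 3′ UTRs of its targets and lowering their stability and translation. The base that follows the tgta core is known to tolerate change, while the core itself is highly conserved among bound RNAs. RBPscan joins an RNA-binding protein to the catalytic domain of ADAR, which turns adenosine into inosine that sequencing reads as guanosine. Edits in the recorder hairpin beside an element are thus used as a record of the fusion's binding there.

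Each library came from HEK293T cells, a human embryonic kidney line labelled wild type, carrying the recorder mRNA library. In 3 groups human PUM2 was fused to the mutated catalytic domain ADARcdMUT: a non-induced group, one labelled 25 ng and one labelled 250 ng. The fourth group had ADARcdMUT alone, with no RNA-binding partner, at a labelled amount of 1000 ng. Each group had 3 libraries labelled as biological replicates. The titles give the amounts but not the substance or the volume, and the amount of ADARcdMUT alone differs from both fusion amounts. The extraction text names zebrafish embryos, while the source, the cell line and the study design give HEK293T, which is used here.

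The sequences that the results turn on are shown with positions 7 and 8 in capitals, first the 4 consensus elements that serve as yardsticks, then the members with the largest and the smallest response to the fusion.
Consensus with A at position 5: tgtaaaTA
Consensus with C at position 5: tgtacaTA
Consensus with G at position 5: tgtagaTA
Consensus with T at position 5: tgtataTA
T7G and A8G with C at position 5: tgtacaGG
T7G and A8T with C at position 5: tgtacaGT
T7A and A8T with T at position 5: tgtataAT
T7G and A8T with T at position 5: tgtataGT
T7G and A8T with A at position 5: tgtaaaGT
T7G and A8C with A at position 5: tgtaaaGC
T7G and A8C with G at position 5: tgtagaGC
T7C and A8G with G at position 5: tgtagaCG
T7A and A8G with G at position 5: tgtagaAG
T7C and A8C with G at position 5: tgtagaCC
The first 5 members in this list changed most relative to the library median between 250 ng and no induction, and the last 5 changed least.

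Libraries held 11235321 to 25127959 reads, of which the members took 3.60 to 3.80%. A member had at least 6652 reads in every library, and the typical counting error of its editing level was 0.0431 to 0.0885 percentage points. The editing level is the number of edits divided by 7 times the number of reads, since each read carries 7 recorder adenosines. The counting error takes these adenosines as independent. Edits gathered in part of the reads, as the values for edited reads below show, so this error is understated. The median element of a library was edited at 1.73 to 1.93% without induction, 4.20 to 4.57% at 25 ng and 7.78 to 7.97% at 250 ng, against 1.82 to 2.06% with ADARcdMUT alone. Because induction moved nearly the whole library, levels are also given relative to the library median, as a difference in log2 odds of editing.

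Over the 36 members the editing level averaged 1.83% ± 0.0938 without induction, 4.87% ± 0.226 at 25 ng and 8.96% ± 0.115 at 250 ng, against 1.91% ± 0.150 with ADARcdMUT alone (SD, n = 3 libraries each). The 250 ng level was 4.89 times and the 25 ng level 2.66 times the non-induced one. In every member all 3 libraries at 250 ng lay above all 3 at 25 ng, and those above all 6 without induced fusion, as did 100% of the 1006 elements. All 36 passed the test (limma, Benjamini-Hochberg adjusted p under 0.05 over 1006 elements) in each comparison with the fusion induced, and the background was again 100%. None passed it between ADARcdMUT alone and no induction, where 0.199% of all elements did and 1 member, against 17.6% of all elements, had an unadjusted p under 0.05.

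The members kept part of the consensus response. At 250 ng they averaged 8.96% ± 0.115, against 13.01% ± 0.227 for the 4 consensus elements, 10.2% ± 0.212 for the 12 single substitutions at position 8, 9.58% ± 0.163 for the 12 at position 7 and 8.05% ± 0.105 for all elements. Measured as percentage points above the library median, the members held 21.2% ± 0.139 of the excess of the consensus element with the same base at position 5 at 250 ng and 19.4% ± 1.10 at 25 ng (SD over 3 libraries). The single substitutions held 33.2% ± 0.971 at position 7 and 44.6% ± 1.53 at position 8 at 250 ng. Without induction no such order was seen: members averaged 1.83% ± 0.0938 and the consensus elements 1.80% ± 0.0504.

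Relative to the library median, 13 of the 36 members were called higher at 250 ng than without induction and 0 lower, where 9.64% of all elements were higher and 3.38% lower, 13% in all (limma, adjusted p under 0.05). Over the members the median change was 0.17 on the log2 odds scale, against 0.01 over all elements. In 22 members all 3 libraries at 250 ng lay above all 3 non-induced ones on this relative scale, as did 21.8% of all elements. Counts with 1 library left out ran between 9 and 17 of 36. The share of all elements called in those runs is not given here, so this range is not set against a background.

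The 13 called members were not spread evenly over the bases. Of the 12 members with A8T, 10 were called, against 2 of 12 with A8G and 1 of 12 with A8C. Against ADARcdMUT alone at 250 ng, 10.3% of all elements were called higher and 4.37% lower. There the counts were 9 with A8T, 3 with A8G and 6 with A8C, so the order of A8G and A8C was the other way round. By the base at position 7, 6 of 12 with T7G were called, 4 of 12 with T7A and 3 of 12 with T7C. By the base at position 5, 5 of 9 with C were called, 4 with T, 3 with A and 1 with G. These are counts of calls, and differences between them were tested only where stated below.

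The base pair at positions 7 and 8 went with levels at 250 ng between 7.97% ± 0.0698 for CG and 10.2% ± 0.291 for GT (mean of 4 members, SD over 3 libraries). With bases at position 5 in the order C, T, A and G, the mean levels for GT were 11.5, 10.9, 9.89 and 8.41%. Those for GG were 11.2, 10.4, 9.14 and 8.06%. For GC they were 10.002, 9.83, 9.17 and 8.33%. In each of these pairs with T7G the element with G at position 5 was lowest, as it was in every other pair given below. The same held for the consensus elements at 250 ng. With G the consensus lay 3.62 points above the library median, against 5.56, 6.01 and 5.37 with C, T and A.

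The pair AT gave 9.69, 10.02, 9.66 and 7.93% in the same order, and AC gave 8.68, 8.72, 8.48 and 7.82%. The pair AG gave 8.94, 8.74, 8.56 and 7.88%. Within the pairs with T7A, T at position 8 went with the highest level for C, T and A at position 5, and for G at position 5 the 3 levels lay close together.

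The pair CT gave 9.15, 9.36, 9.17 and 8.04%, CC gave 8.31, 8.57, 8.17 and 7.94% and CG gave 7.98, 8.24, 8.02 and 7.65%. The members with T7C were thus the lowest set, at 8.38% ± 0.0761 over 12 members, against 8.76% ± 0.0956 with T7A and 9.74% ± 0.176 with T7G. By position 8 the means were 9.48% ± 0.168 with A8T, 8.74% ± 0.113 with A8G and 8.67% ± 0.0714 with A8C. By position 5 they were 9.50% ± 0.134 with C, 9.42% ± 0.197 with T, 8.92% ± 0.0735 with A and 8.01% ± 0.0965 with G.

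As a share of the excess of the matched consensus element over the library median at 250 ng, GT held 44.8% ± 3.35, GG 35.7% ± 1.96 and GC 28.4% ± 2.03. The pair AT held 28.2% ± 1.73, CT 20.6% ± 0.665, AG 12.8% ± 1.19 and AC 10.7% ± 0.194. The lowest were CC at 7.25% ± 1.71 and CG at 1.95% ± 0.907. By the base at position 5 the share was 29.2% ± 1.39 with C, 25.8% ± 1.52 with T, 19.5% ± 2.85 with A and 3.73% ± 0.176 with G. Relative to the library median on the log2 odds scale, the same 4 sets lay at 0.29, 0.28, 0.19 and 0.03. At 25 ng the shares of the consensus excess were 25.5% ± 1.83 with C, 27.8% ± 3.24 with T, 16.6% ± 0.521 with A and -0.823% ± 5.26 with G, so the order of C and T turned and G lay about the library median. The pairs GT, GG and GC held 41.9% ± 4.67, 31.1% ± 3.78 and 31.5% ± 2.13 there. These shares are levels and include any difference from the median before induction. As a fold over the non-induced level, GC at 250 ng reached 4.48, against 5.71 for GT, 5.34 for AT, 5.33 for GG, 4.99 for CT, 4.83 for AC, 4.52 for CC, 4.52 for AG and 4.40 for CG, so GC was lower in this order than by its share.

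Ordered by mean level at 250 ng, the members ran from tgtacaGT at 11.5% ± 0.415 to tgtagaCG at 7.65% ± 0.0730. Of the 35 neighbouring pairs in that order, 34 overlapped in their libraries. This count does not match libraries, and within-library differences between neighbours were not tested, so single steps in the order are not read as differences. The exception was the step between tgtacaGG at 11.2% ± 0.103 and tgtataGT at 10.9% ± 0.234.

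tgtacaGG was edited at 1.48, 1.82 and 1.60% without induction, 5.93, 6.06 and 5.94% at 25 ng and 11.2, 11.1 and 11.3% at 250 ng, against 1.69, 1.79 and 1.70% with ADARcdMUT alone. Its relative change between 250 ng and no induction was the largest of the members, at 0.73 (SE 0.06, adjusted p = 2.99e-06) by limma with Benjamini-Hochberg adjustment. Its 250 ng libraries spanned a narrow range, and its non-induced libraries held low levels for the library, -0.17 on the log2 odds scale relative to the median. tgtacaGT was edited at 1.66, 2.04 and 1.84% without induction, 6.09, 6.62 and 5.86% at 25 ng and 11.2, 11.4 and 11.96% at 250 ng, against 2.06, 1.84 and 1.69% with ADARcdMUT alone. This element had the highest level of all members at 250 ng, and its relative change was 0.59 (SE 0.06, adjusted p = 4.68e-06). It held 65.4% ± 5.30 of the matched consensus excess, and tgtacaGG held 60.04% ± 2.66.

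tgtataAT was edited at 1.68, 1.81 and 1.72% without induction, 5.36, 5.60 and 5.11% at 25 ng and 9.92, 9.87 and 10.3% at 250 ng, against 2.05, 1.92 and 1.61% with ADARcdMUT alone. Its relative change was 0.45 (SE 0.05, limma, adjusted p = 3.91e-05). The 250 ng level lay well above the library medians, and the non-induced level lay below those of 1.73, 1.93 and 1.81% in each library. tgtataGT was edited at 1.86, 2.05 and 1.84% without induction, 5.96, 5.93 and 5.85% at 25 ng and 10.99, 10.6 and 11.1% at 250 ng, against 2.12, 1.87 and 1.74% with ADARcdMUT alone. The relative change was 0.44 (SE 0.06, adjusted p = 7.21e-05) for this element, which held 50.2% ± 1.81 of the matched consensus excess. tgtaaaGT was edited at 1.76, 1.72 and 1.72% without induction, 5.36, 5.70 and 5.04% at 25 ng and 9.48, 9.92 and 10.3% at 250 ng, against 2.11, 1.75 and 1.67% with ADARcdMUT alone. Its relative change was 0.44 (SE 0.06, adjusted p = 0.000221). In all 5 of these members the 250 ng libraries lay above every 25 ng library, as in 100% of all elements. The 25 ng libraries lay above every non-induced and ADARcdMUT library, again as in 100% of all elements.

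Another 8 members were called higher at 250 ng than without induction relative to the library median. tgtataCT was edited at 1.62, 1.97 and 1.73% without induction, 4.92, 5.40 and 4.86% at 25 ng and 9.07, 9.29 and 9.73% at 250 ng, against 2.18, 1.99 and 1.65% with ADARcdMUT alone. tgtataGG was edited at 1.55, 2.14 and 2.05% without induction, 5.37, 5.63 and 5.37% at 25 ng and 10.1, 10.3 and 10.8% at 250 ng, against 1.95, 1.75 and 1.73% with ADARcdMUT alone. tgtacaAT was edited at 1.57, 1.81 and 1.99% without induction, 4.97, 5.999 and 5.09% at 25 ng and 9.59, 9.72 and 9.76% at 250 ng, against 2.22, 1.64 and 1.94% with ADARcdMUT alone. All 3 lay above the library medians in each 250 ng library, and their relative changes were 0.31 (SE 0.06, adjusted p = 0.00251), 0.39 (SE 0.07, adjusted p = 0.00214) and 0.36 (SE 0.09, adjusted p = 0.0178) in that order. tgtaaaAT was edited at 1.76, 1.78 and 1.73% without induction, 5.06, 5.14 and 4.73% at 25 ng and 9.92, 9.21 and 9.86% at 250 ng, against 2.29, 1.86 and 1.67% with ADARcdMUT alone. tgtacaCT was edited at 1.72, 2.02 and 1.73% without induction, 4.88, 5.21 and 4.51% at 25 ng and 8.89, 9.36 and 9.21% at 250 ng, against 1.91, 1.85 and 1.73% with ADARcdMUT alone. tgtaaaCT was edited at 1.76, 1.92 and 1.80% without induction, 4.84, 5.48 and 4.79% at 25 ng and 9.36, 9.12 and 9.04% at 250 ng, against 1.91, 1.86 and 2.0002% with ADARcdMUT alone. Their relative changes were 0.37, 0.24 and 0.24, with adjusted p of 0.00194, 0.00562 and 0.0215. tgtacaAC was edited at 1.66, 1.69 and 1.73% without induction, 4.68, 5.22 and 4.26% at 25 ng and 8.74, 8.42 and 8.87% at 250 ng, against 1.87, 2.06 and 1.64% with ADARcdMUT alone. tgtagaGT was edited at 1.37, 1.62 and 1.90% without induction, 4.46, 4.46 and 4.34% at 25 ng and 8.10, 8.45 and 8.69% at 250 ng, against 1.94, 1.998 and 1.62% with ADARcdMUT alone. The changes of these last 2 were 0.26 and 0.28, with adjusted p of 0.0225 and 0.0483. The call of tgtagaGT, the only one with G at position 5, was lost without any 250 ng or 25 ng library and without non-induced replicate 1 or 2, with changes of 0.19 to 0.40 over all libraries left out. The call of tgtacaAT was lost without any 250 ng library and without non-induced replicate 1 or 2. That of tgtaaaCT was lost without 250 ng replicate 1 or 2 and without non-induced replicate 2 or 3, and that of tgtacaAC without 250 ng replicate 1 or 3 and without non-induced replicate 2. The changes then ran from 0.30 to 0.45 for tgtacaAT, 0.21 to 0.26 for tgtaaaCT and 0.22 to 0.28 for tgtacaAC over all libraries left out. The calls of the other 9 held whichever library was left out.

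At the other end, the 5 lowest relative changes were those of 4 members with G at position 5 and of tgtaaaGC. tgtagaCC was edited at 1.79, 2.28 and 1.90% without induction, 4.19, 4.36 and 4.34% at 25 ng and 8.01, 7.94 and 7.87% at 250 ng, against 2.06, 2.03 and 1.88% with ADARcdMUT alone. tgtagaAG was edited at 1.83, 2.12 and 1.90% without induction, 4.30, 4.22 and 4.08% at 25 ng and 7.86, 7.80 and 7.99% at 250 ng, against 2.06, 2.03 and 1.85% with ADARcdMUT alone. tgtagaCG was edited at 1.66, 2.003 and 1.91% without induction, 4.18, 4.50 and 4.09% at 25 ng and 7.62, 7.61 and 7.74% at 250 ng, against 2.07, 1.94 and 1.85% with ADARcdMUT alone. Their relative changes between 250 ng and no induction were -0.11, -0.10 and -0.07, none of which passed the test. With 1 library left out they ran from -0.14 to -0.045 for tgtagaCC and from -0.11 to -0.041 for tgtagaCG. tgtagaGC was edited at 1.87, 2.12 and 1.77% without induction, 4.63, 4.83 and 4.34% at 25 ng and 8.42, 8.40 and 8.18% at 250 ng, against 2.22, 2.16 and 2.13% with ADARcdMUT alone. tgtaaaGC was edited at 1.85, 2.40 and 2.16% without induction, 4.92, 5.12 and 4.95% at 25 ng and 9.22, 9.30 and 8.9998% at 250 ng, against 2.30, 2.22 and 1.90% with ADARcdMUT alone. These 2 had relative changes of 0.01 and 0.01, also not called. With 1 library left out the changes lay on both sides of 0, between -0.04 and 0.05 for tgtagaGC and between -0.05 and 0.06 for tgtaaaGC.

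The pair GC was already high before induction. Its 4 members averaged 2.08% ± 0.181 without induction and 2.17% ± 0.155 with ADARcdMUT alone, against 1.83% ± 0.0938 and 1.91% ± 0.150 over all members. On the log2 odds scale relative to the library median this was 0.19 without induction and 0.16 with ADARcdMUT alone. At 250 ng the GC members were as high as those of AT (9.33% ± 0.0294 and 9.33% ± 0.166), yet 0 of 4 were called relative to the median against no induction, where 3 of 4 were for AT. tgtacaGC was edited at 1.94, 2.12 and 2.05% without induction, 5.56, 6.13 and 5.29% at 25 ng and 9.88, 9.94 and 10.2% at 250 ng, against 2.40, 1.87 and 2.15% with ADARcdMUT alone. It was called against ADARcdMUT alone at both amounts but not against no induction, where its change was 0.22 (SE 0.07, adjusted p = 0.0659). How far the higher starting level of GC bears on its calls was not tested.

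The base at position 5 was then set within 1 base pair. For each pair, the within-library difference between 2 bases at position 5 was compared between 250 ng and no induction, with all 211 skeletons of the library that differ only in that base in 1 fit (limma, adjusted p under 0.05). The 6 pairs of bases give 6 such fits. Each value given for them, here and at 25 ng, is the change of that difference from no induction, on the log2 odds scale. For GG, C exceeded G by 0.69 (SE 0.10, adjusted p = 0.000267), where 4.74% of skeletons were called higher. C exceeded A by 0.57 (SE 0.09, adjusted p = 0.000582), the only skeleton called, which is 0.474%. C exceeded T by 0.34 (SE 0.09, adjusted p = 0.0434), where 1.42% were higher and 2.84% lower. T exceeded G by 0.35 (SE 0.10, adjusted p = 0.0401), where 11.8% were higher. These last 2 calls were lost on leaving out any library at 250 ng or 25 ng and on leaving out some non-induced ones. Over all libraries left out the differences ran from 0.27 to 0.42 for C over T and from 0.22 to 0.45 for T over G. Without induction the GG element with C was edited at 1.48, 1.82 and 1.60%. Those with A were at 1.84, 2.003 and 1.92%, with G at 1.77, 1.80 and 1.89% and with T at 1.55, 2.14 and 2.05%. How far these starting levels bear on the calls was not tested.

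For AT, T exceeded G by 0.34 (SE 0.07, adjusted p = 0.00782), a call lost without 250 ng replicate 3, when the difference was 0.34. No other pair of bases was called for any of the 9 base pairs at 250 ng. At 25 ng, GG again had C above G by 0.64 (SE 0.10, adjusted p = 0.000824) and C above A by 0.55 (SE 0.09, adjusted p = 0.00105), with backgrounds of 5.21% and 0.474%. AT had T above G by 0.31 (SE 0.07, adjusted p = 0.0207), where 5.21% of skeletons were higher, and CC had C above G by 0.32 (SE 0.09, adjusted p = 0.047), with the background of 5.21% above. The 25 ng and 250 ng comparisons share the 3 non-induced libraries.

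At 25 ng against no induction, 10 of the 36 members were called higher relative to the library median and 0 lower, where 7.06% and 2.19% of all elements were, 9.24% in all. The median change was 0.16, against -0.0030 over all elements. The count was 6 without 25 ng replicate 1 and 5 without 25 ng replicate 2, where 5.37% and 5.27% of all elements were called. Side by side, the relative changes at 250 ng and 25 ng against the same non-induced libraries were 0.73 and 0.65 for tgtacaGG. They were 0.59 and 0.52 for tgtacaGT, and 0.45 and 0.39 for tgtataAT. Between 250 ng and 25 ng directly, 0 of 36 members and 0 of all elements were called relative to the median by limma, and 0 members had an unadjusted p under 0.05, as 0.398% of all elements did.

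Against ADARcdMUT alone, 18 of 36 members were called higher at 250 ng and 0 lower, where 10.3% and 4.37% of all elements were. At 25 ng 15 were higher and 0 lower, where 7.55% and 2.49% were. The 250 ng count fell to 11 without 250 ng replicate 1, and the 25 ng count to 7 without 25 ng replicate 2 and 8 without replicate 3. The shares of all elements called were then 8.25%, 6.26% and 7.75%. Called against ADARcdMUT alone at 1 or both amounts, but not against no induction, were tgtaaaAC, tgtaaaCC, tgtaaaGG, tgtacaCC, tgtacaGC and tgtataAC. tgtaaaAC was edited at 1.71, 1.83 and 1.78% without induction, 4.50, 4.84 and 4.52% at 25 ng and 8.59, 8.36 and 8.48% at 250 ng, against 1.90, 1.64 and 1.77% with ADARcdMUT alone. Its relative change was 0.26 (SE 0.06, adjusted p = 0.0069) at 250 ng against ADARcdMUT alone and 0.15 (SE 0.06, adjusted p = 0.0994) against no induction. The largest change against ADARcdMUT alone was again that of tgtacaGG, 0.74 (SE 0.06, adjusted p = 1.66e-06) at 250 ng. ADARcdMUT alone against no induction gave 0 calls among the members, where 0.199% of all elements were called, and 2 members, against 13.3% of all elements, had an unadjusted p under 0.05. Leaving out non-induced replicate 1 gave 1 call, where 0.497% of all elements were called.

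The calls of the 4 comparisons with induced fusion share libraries and are therefore given together. In all 4 the called members included tgtaaaCT, tgtaaaGT, tgtacaAT, tgtacaGG, tgtacaGT, tgtataAT, tgtataCT, tgtataGG and tgtataGT, which makes 9. Each has T at position 8 or carries T7G with A8G, and none has G at position 5. Of all elements 5.17% were called higher in all 4. At least 1 comparison called 19 members, and 17 were called in none, where 13% and 87% of all elements were. Those 17 included 8 of the 9 with G at position 5 and all 4 members of each of the pairs AG and CG.

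Each member was also set against the consensus element with the same base at position 5, as a within-library difference compared between 250 ng and no induction. Of the 36, 35 changed less than their consensus (limma, adjusted p under 0.05), where 99.3% of the 840 single and double substitutions did. The exception was tgtacaGG, whose difference was -0.09 on the log2 odds scale (95% interval -0.32 to 0.14, adjusted p = 0.422). Its level at 250 ng, 11.2, 11.1 and 11.3%, lay below that of its consensus tgtacaTA, 13.5, 13.04 and 13.8%, in every library. Without induction it lay at 1.48, 1.82 and 1.60%, against 1.74, 2.02 and 1.87% for tgtacaTA. At 250 ng all 36 members lay below their consensus in all 3 libraries, as did 100% of the 756 double substitutions. At 25 ng 35 of 36 changed less than their consensus, where 99.5% did.

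Each member was next set against each of the 2 single substitutions that make it up, again within libraries. Against the single with the same change at position 7, 10 members changed less and 2 more between 250 ng and no induction. The background for this comparison covers 756 double substitutions at any 2 fixed positions, each set against the single with the more 5′ of its changes, whatever its position. By that measure 22.6% changed less and 0.926% more. The 2 that changed more were tgtaaaCT, by 0.30 (SE 0.10, adjusted p = 0.0336), and tgtacaGG, by 0.28 (SE 0.09, adjusted p = 0.0291). Both calls were lost without any 250 ng library, tgtacaGG also without non-induced replicate 1 and tgtaaaCT also without non-induced replicate 2 or 3. The differences then ran from 0.21 to 0.33 for tgtacaGG and from 0.26 to 0.33 for tgtaaaCT over all libraries left out. The count of 12 became 7 without non-induced replicate 3 and 6, 4 and 4 without 250 ng replicates 1, 2 and 3. The share of all double substitutions called in either direction went from 23.5% to 19.2%, 11.6%, 10.8% and 8.33%.

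At 250 ng tgtaaaCT had 9.36, 9.12 and 9.04%, against 7.88, 8.15 and 8.25% for its T7C single tgtaaaCA, and these did not overlap. By contrast tgtacaGG had 11.2, 11.1 and 11.3%, against 10.7, 10.999 and 11.4% for its T7G single tgtacaGA, and these overlapped. Without induction tgtacaGG was edited at 1.48, 1.82 and 1.60%, against 1.95, 2.05 and 1.84% for tgtacaGA. How far its non-induced level bears on its calls against either single was not tested. In 3 members, tgtaaaCT, tgtaaaGT and tgtataCT, all libraries at 250 ng lay above those of the position 7 single, and in 19 members they lay below. Of the 756 double substitutions, 3.17% lay above and 68% below the single with their more 5′ change.

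Against the single with the same change at position 8, 25 members changed less and 1 more. Its background sets the 756 double substitutions against the single with the more 3′ of their changes, and 64% changed less and 0.661% more, 64.7% in all. The count fell to 17 lower and higher together without 250 ng replicate 3, where 52.4% of double substitutions were called. The 1 that changed more was tgtacaGG, by 0.32 (SE 0.10, adjusted p = 0.00878). At 250 ng it had 11.2, 11.1 and 11.3%, against 10.5, 10.3 and 10.8% for its A8G single tgtacaTG, without overlap. All libraries at 250 ng lay below the position 8 single in 29 members and above it in 2 (tgtacaGG and tgtagaGC). For tgtagaGC this held for the level only: its change from no induction against that single was -0.11 (limma, adjusted p = 0.238). Of the 756 double substitutions, 86.1% lay below and 1.06% above the single with their more 3′ change. At 25 ng, 6 members changed less than the position 7 single and 0 more, where 14.8% and 0.132% did against the single with the more 5′ change. The count of 6 was 2 without 25 ng replicate 1 and 1 without replicate 2, where 6.48% and 6.08% of double substitutions were called. Against the position 8 single 21 changed less and 1 more, where 57.3% and 0.661% did against the single with the more 3′ change, 57.9% in all.

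Additivity was tested as the double minus both singles plus the consensus, on the log2 odds scale, between 250 ng and no induction. A value of 0 means that the losses add, and a positive value that the double lost less than their sum. Of the 36, 11 were positive past the threshold and 0 negative, where 40.9% and 0.132% of double substitutions were, 41% in all, and the median was 0.25 against 0.34 over all double substitutions. Leaving out 1 library lowered the count to 6 without non-induced replicate 2 and to 4, 4 and 5 without 250 ng replicates 1, 2 and 3. The share of all double substitutions called was then 32%, 22.1%, 24.7% and 26.5%. At 25 ng 9 were positive, where 36.2% were. The count was 3 without 25 ng replicate 1 and 5 without replicate 3, where 19.6% and 22.2% of double substitutions were called.

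The least additive members were tgtacaGG, at 0.69 (SE 0.15, adjusted p = 0.00316), tgtaaaCC, at 0.65 (SE 0.18, adjusted p = 0.0103), tgtataCC, at 0.56 (SE 0.18, adjusted p = 0.0233), and tgtaaaCT, at 0.55 (SE 0.12, adjusted p = 0.00306). tgtaaaCC was edited at 1.87, 1.91 and 1.70% without induction, 4.36, 4.88 and 4.21% at 25 ng and 8.19, 8.07 and 8.24% at 250 ng, against 1.71, 1.83 and 1.68% with ADARcdMUT alone. tgtataCC was edited at 1.62, 1.72 and 1.99% without induction, 4.81, 5.30 and 4.40% at 25 ng and 8.44, 8.35 and 8.92% at 250 ng, against 2.04, 1.91 and 1.63% with ADARcdMUT alone. Both lay close to their T7C singles at 250 ng, which had 7.88, 8.15 and 8.25% for tgtaaaCA and 8.66, 8.59 and 8.97% for tgtataCA. The value of tgtataCC fell to 0.31 without non-induced replicate 2, and its call was lost then and without any 250 ng library, with values of 0.31 to 0.69 over all libraries left out. The T7C single tgtaaaCA, shared by tgtaaaCC and tgtaaaCT, itself held 4.05% ± 1.82 of the matched consensus excess, and tgtataCA held 14.3% ± 1.61. Little excess was thus left for a second change to lower in these members. How far this bears on their additivity values was not tested. The most additive by value were tgtacaCT at 0.03, tgtaaaAG at -0.04, tgtagaAG at 0.06 and tgtacaAC at 0.07, none called. Their 95% intervals were -0.28 to 0.34, -0.39 to 0.32, -0.21 to 0.33 and -0.25 to 0.40. These hold the member median of 0.25, so the values near 0 do not show that the losses add. tgtaaaAG was edited at 1.94, 2.03 and 1.87% without induction, 4.60, 5.05 and 4.73% at 25 ng and 8.70, 8.45 and 8.52% at 250 ng, against 2.11, 2.06 and 1.98% with ADARcdMUT alone. Its 250 ng level lay below both of its singles, which had 9.95, 10.2 and 10.5% for the T7A single tgtaaaAA and 10.2, 10.2 and 10.7% for the A8G single tgtaaaTG.

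The share of reads with at least 1 edit put the groups in the same order. Over the members it was 6.97% ± 0.0495 without induction, 14.6% ± 0.162 at 25 ng and 23.5% ± 0.395 at 250 ng, against 7.10% ± 0.377 with ADARcdMUT alone. At 250 ng the members stood at 23.5% ± 0.395 and the consensus elements at 28.9% ± 0.265. An edited read carried 1.84 ± 0.0807 edits in members without induction, 2.33 ± 0.0940 at 25 ng and 2.66 ± 0.0189 at 250 ng, against 1.88 ± 0.0495 with ADARcdMUT alone. The consensus elements reached 3.15 ± 0.0250 at 250 ng, so members were lower both in reads edited and in edits per edited read. For tgtacaGG the 250 ng values were 26.7, 26.4 and 26.6% of reads and 2.95, 2.94 and 2.98 edits per edited read, against 29.3, 28.7 and 29.9% and 3.22, 3.18 and 3.23 for tgtacaTA, without overlap in either measure.

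The number of reads per element, a separate readout of the same libraries, was tested with the quasi-likelihood test of edgeR. For the share of reads at 250 ng and 25 ng against no induction and with ADARcdMUT alone against no induction, 0 members passed the test in this fit, and the background was 0 in all 3. An unadjusted p under 0.05 was found for 9, 0 and 10 members in these comparisons, where 42.7%, 0.0994% and 25.3% of all elements had one. DESeq2 called 3 members at 250 ng and 5 with ADARcdMUT alone, where it called 30.9% and 9.53% of the elements it tested. With only the 250 ng and non-induced libraries in the edgeR fit, 10 members were called, where 48.2% of all elements were, so whether a member's share of reads passed the test depended on the fit. The fitted changes ran from -0.27 to 0.23 at 250 ng, -0.05 to 0.07 at 25 ng and -0.14 to 0.20 with ADARcdMUT alone, on the log2 scale. Leaving out 1 library gave 4 calls at 250 ng without 25 ng replicate 1 and 8 without 25 ng replicate 2. Of all elements 21.3% and 43.3% were then called. With ADARcdMUT alone, leaving out 1 library gave 4 without 25 ng replicate 2 and 6 without ADARcdMUT replicate 3, where 15.1% and 14.2% of all elements were called.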

How the data were processed

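Editing of a recorder library was measured by amplicon sequencing in 12 libraries, 3 biological replicates in each of 4 groups read from the sample titles. Per the file headers, the deposited tables list for each element the count of reads, the count of reads with an edit, the edits summed over reads and all reads. The authors deposited in addition the percent of adenosines edited, each element's percent of the reads and a score called efficiency. The deposited percent edited equals edits over 7 times the reads. The deposited score was not used for a result. The aligner, edit caller and read filters, not given in the sources used here, could not be checked. The labels mention no molecular identifiers, hence counting errors cover counting alone. The p-values set a difference between groups against the spread between replicates, moderated over elements.

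The value tested was log2((edits + 0.5)/(7 × reads − edits + 0.5)), computed from the deposited counts, as is or minus the library median. Elements were fitted with limma 3.58.1 in R 4.3.3 (lmFit, eBayes with trend) in 1 fit of 12 libraries, with Benjamini-Hochberg adjustment over 1006 elements, 840 single and double substitutions, 756 double substitutions or 211 skeletons. Read counts were fitted with edgeR 4.0.16, and with DESeq2 1.42.0 as an alternative. Tables were joined with Python 3.11.15 and pandas 2.3.3, and the fits were tested on simulated data. Between replicates the chi-squared of the reads per degree of freedom was 6.24 to 202, far beyond sampling noise, and all 12 libraries were kept as separate replicates.

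Values of every library are given for the 5 highest and 5 lowest relative changes at 250 ng against no induction, up to 10 other called members, and the 4 most and 4 least additive. The members, lists and tests were chosen with earlier results of these data known, and the test of the base at position 5 was added after its values were seen. Alternatives were other pseudocounts, a minimum of 5000 reads, another centring, a quasi-binomial model, an arcsine scale, the share of reads edited, fits of 2 groups, a replicate block and each library left out.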

Additional observations from a re-analysis of the deposited data

How the results depend on the processing

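Counts of members called are given in either direction with the share of all elements called in brackets, and the cause of each shift was not tested. On the arcsine scale the counts relative to the median were 23 (21.4%) at 250 ng and 16 (10.6%) at 25 ng against no induction and 6 (3.48%) at 250 ng against 25 ng, and the quasi-binomial model gave 6 (5.86%) at 25 ng against no induction. With the share of reads edited they were 11 (11.3%) at 250 ng and 8 (8.65%) at 25 ng against ADARcdMUT alone. The same measure gave 4 (11.2%) and 3 (8.86%) against the position 7 single at 250 ng and 25 ng, and 6 (23.9%) and 1 (8.2%) for additivity. With only the 2 groups in the fit, 25 ng against ADARcdMUT alone gave 7 (5.77%), and read share at 250 ng gave 10 (48.2%). DESeq2 gave 3 (30.9%) and 5 (9.53%) for read share at 250 ng and with ADARcdMUT alone. In log2 odds of reads edited relative to the median, the base pairs lay at 0.22 (GT), 0.18 (GG), 0.15 (GC), 0.14 (AT), 0.10 (CT), 0.058 (AG), 0.039 (AC), 0.030 (CC) and -0.016 (CG), and the bases at position 5 at 0.16 (C), 0.15 (T), 0.10 (A) and -0.0082 (G). With 1 library left out, counts relative to the median at 25 ng against no induction ran from 5 (5.27%) to 14. Against ADARcdMUT alone they ran from 11 (8.25%) to 18 at 250 ng and 7 (6.26%) to 17 at 25 ng. For ADARcdMUT alone against no induction they ran from 0 to 1 (0.497%). Against the position 7 single they ran from 4 (10.8% and 8.33%) to 14 at 250 ng and 1 (6.08%) to 9 at 25 ng. Against the position 8 single they ran from 17 (52.4%) to 27 at 250 ng. For additivity they ran from 4 (22.1% and 24.7%) to 14 at 250 ng and 3 (19.6%) to 10 at 25 ng. Read share ran from 0 to 8 (43.3%) at 250 ng and 0 to 6 (14.2%) with ADARcdMUT alone. Ends of a range without brackets have no share given here and are not set against a background. Changes that crossed 0 ran from -0.049 to 0.062 (tgtaaaGC) and -0.038 to 0.046 (tgtagaGC), and additivity from -0.18 to 0.054 (tgtaaaAG), -0.021 to 0.14 (tgtacaAC) and -0.0052 to 0.10 (tgtagaAG). With the replicate number as a block, read share at 250 ng gave 2 calls (26.6%). Relative to the median, 12 members were then called at 250 ng against no induction, with the share of all elements not given here. With this block no other count of calls moved by over 1.5 times. The call of tgtagaGT and that of C over T in GG were lost with the block. Same-numbered libraries did not deviate together: 18 correlations ran from -0.0946 to 0.0737, 0 of them over 0.1. Beyond these 28 shifts, 163 summary results stayed within their spread or 1.5 times under other alternatives, as did 292 with 1 library left out, where 23 did not. At this depth counting error is small if the adenosines of a read are taken as independent, which understates it. The 3 libraries a group limit the precision.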
